A study of Arabidopsis thaliana with 9 samples.

Results

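*ERF4* (locus AT3G15210) and *ERF11* (locus AT1G28370) are a pair of *Arabidopsis* transcription factor genes of the ethylene response factor (ERF) family. Each is reported by 1 probe set, a group of short oligonucleotides that measures 1 transcript, so they make up 2 of the 22810 probe sets of the ATH1 array. The array annotation used here lists neither probe set. Their names come from the supplementary gene ontology table of the study, which pairs probe sets with gene names and gives both genes by their protein database entries. The pairing of *ERF11* rests on 1 term of that table. Of the 37 pairs in this term, 1 could be checked against the array annotation, and it had the same locus. As the genes of that table were picked by the study for a change in MeGRX232-OE plants, the names of both members are no independent evidence of a direction in that comparison. Comparisons below that share its MeGRX232-OE or vector arrays are not free of this choice either. The same holds for *CAT3*, *ACS6*, *ACS8*, *MPK3*, *CCA1*, *RVE8*, *ELF3* and *TOC1* below.

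The proteins bind the GCC box, a promoter element of ethylene-responsive and defence genes, and carry an EAR motif, a short stretch that recruits co-repressors. Factors of this kind switch target genes off and are often induced together with the activators that they oppose. *ERF4* is known as a negative regulator of ethylene, jasmonate and ABA responses, and *ERF11* as a repressor of genes for ethylene synthesis.

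Transcripts were measured in mature leaves of 45-day-old transgenic plants grown at 22 °C under 12 h of light and 12 h of dark, without any stress. The 3 groups were MeGRX232-OE (lines 3, 9 and 12), MeGRX360-OE (lines 5, 11 and 20) and plants with the empty vector pG1300 (arrays 1, 2 and 3), with 3 arrays each. All plants are transgenic in the Col-0 background. The methods of the study equate MeGRX232-OE with overexpression of *MeGRXC15*, a CC-type glutaredoxin gene of cassava (a small redox enzyme of a plant-specific class), driven in all tissues by a constitutive viral promoter. MeGRX360-OE is by its label the overexpression of another cassava gene, and the study does not say which. Each array of an overexpression group is a separate line by its label, and the study describes the *MeGRXC15* lines as homozygous. The labels number the vector arrays as biological replicates, without saying whether each is a separate line. The transgene itself was not checked, as the array carries *Arabidopsis* sequences.

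Values are intensities on a linear scale. The array medians were 28.1 to 30.2. The intensity of the 25S rRNA probe set did not overlap between groups and was highest in MeGRX360-OE (430 to 616 on MeGRX232-OE arrays, 853 to 1070 on MeGRX360-OE arrays, 279 to 350 on vector arrays). The ratio of the 3′ to the 5′ probe set of GAPDH, which rises as RNA breaks down, was 8.96 to 11.1 on 8 arrays and 16.1 in line 5 of MeGRX360-OE. The same ratio of ubiquitin was 2.15 to 2.89 on those 8 arrays and 3.12 in line 5. That of actin was 12 to 20.1 over all arrays, with 14.8 in line 5 and the highest value in line 12 of MeGRX232-OE. Their part in the results was not tested. The leaf genes *RCA* (Rubisco activase) and *PRK* (phosphoribulokinase), the 2 of 7 leaf markers with a named probe set, had intensities of 1803 or more on every array. Their summed intensity was 8999 to 10232 in MeGRX232-OE leaves, 12090 to 12461 in MeGRX360-OE leaves and 15547 to 15721 in vector leaves. Both fell in MeGRX232-OE (by 0.57 and 1.09 on the log2 scale) and *PRK* fell in MeGRX360-OE (by 0.51), the last a call that was lost without line 5, line 20 or any 1 of the vector arrays (adjusted p 0.0531 to 0.0954). The root gene *EXPA7*, the 1 named of 4 root markers, stayed at 12.1 to 18.5. In whole leaves, fewer cells of a type and less RNA per cell cannot be told apart.

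*ERF4* had intensities of 337, 381 and 395 in MeGRX232-OE lines 3, 9 and 12, 133, 127 and 255 in MeGRX360-OE lines 5, 11 and 20, and 153, 142 and 85.3 in vector arrays 1, 2 and 3. All MeGRX232-OE lines lay above every other array, whereas lines 5 and 11 of MeGRX360-OE lay within the range of the vector arrays and only line 20 lay above it. The mean log2 intensity was 8.53 ± 0.12 in MeGRX232-OE, 7.34 ± 0.56 in MeGRX360-OE and 6.94 ± 0.46 in vector leaves (SD, n = 3 each).

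*ERF11* had intensities of 1117, 1438 and 2434 in MeGRX232-OE lines 3, 9 and 12, 383, 216 and 593 in MeGRX360-OE lines 5, 11 and 20, and 93.3, 95 and 60.8 in vector arrays 1, 2 and 3. The 3 groups did not overlap, and line 20 was again the highest of MeGRX360-OE. The mean log2 intensity was 10.62 ± 0.57 in MeGRX232-OE, 8.52 ± 0.73 in MeGRX360-OE and 6.35 ± 0.36 in vector leaves (SD, n = 3 each). Relative to the vector mean (of log2 values), the MeGRX232-OE lines 3, 9 and 12 had 2.75-fold, 3.11-fold and 3.22-fold *ERF4* and 13.7-fold, 17.7-fold and 29.9-fold *ERF11*. The MeGRX360-OE lines 5, 11 and 20 had 1.08-fold, 1.04-fold and 2.08-fold *ERF4* and 4.71-fold, 2.65-fold and 7.29-fold *ERF11*. For both genes, line 12 was the highest of the MeGRX232-OE lines and array 3 the lowest of the vector arrays.

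**Figure D1:**
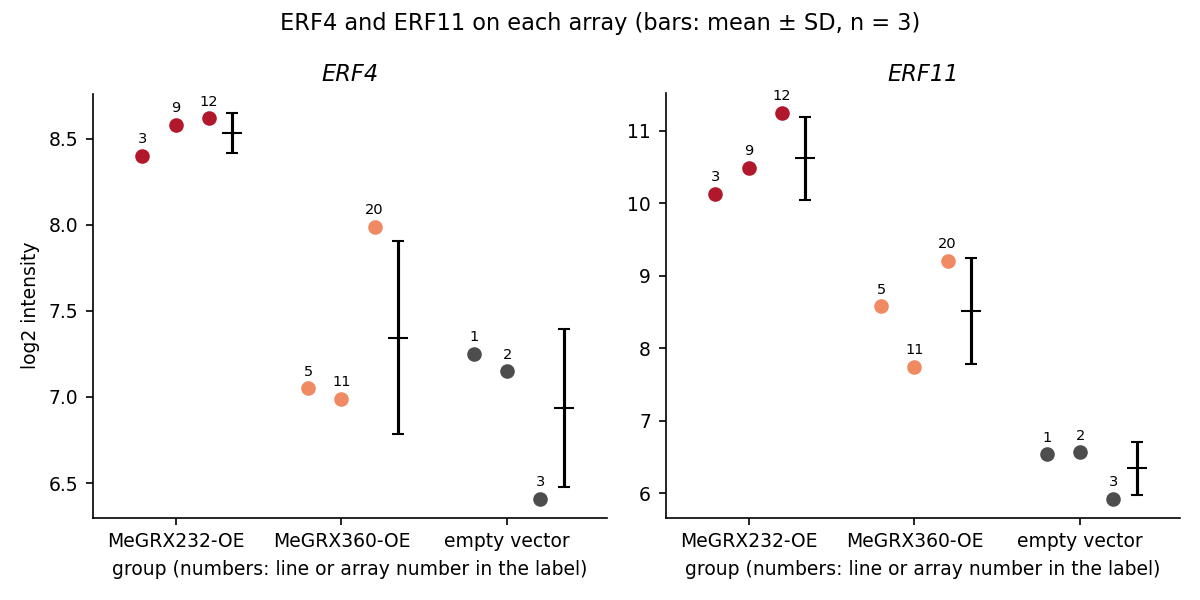
Log2 intensity of *ERF4* and *ERF11* on each of the 9 arrays (vertical axes, own scale for each gene), with the groups on the horizontal axes, points numbered by line or vector array and bars for the mean ± SD (n = 3). *ERF11* shows 3 separate groups with means of 10.62, 8.52 and 6.35, whereas the MeGRX360-OE and vector points of *ERF4* overlap (means of 7.34 and 6.94).

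Differences were tested with limma on log2 intensities of all 22746 probe sets other than controls, and "rose" and "fell" are used of genes whose p, adjusted by Benjamini-Hochberg, was under 0.05. Both comparisons with the vector share the same 3 vector arrays.

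In MeGRX232-OE against vector leaves both repressor genes rose. *ERF11* was 19.4-fold higher (log2 fold change 4.28, SE 0.40, 95% interval 3.37 to 5.18, adjusted p = 1.93e-04). *ERF4* was 3.02-fold higher (log2 fold change 1.59, SE 0.30, 95% interval 0.92 to 2.27, adjusted p = 0.00526). Of all probe sets tested 22.0% were called by this rule in either direction, 9.22% rose and 17.0% had MeGRX232-OE arrays that were all above the vector arrays, as both genes did. The rise of *ERF11* was the 58th highest of the table and that of *ERF4* the 742nd.

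In MeGRX360-OE against vector leaves *ERF11* rose and *ERF4* did not pass the test. *ERF11* was 4.50-fold higher (log2 fold change 2.17, SE 0.40, 95% interval 1.27 to 3.07, adjusted p = 0.00723), the 287th highest change, where 16.5% of probe sets were called, 6.74% rose and 16.5% had MeGRX360-OE arrays all above the vector arrays. The log2 fold change of *ERF4* was 0.41 (SE 0.30, 95% interval −0.27 to 1.08, adjusted p = 0.433), an interval that reaches from a small decrease to a 2.12-fold increase. Without line 20 the difference of *ERF4* was 0.08, and without vector array 3 it was 0.15.

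Set directly against MeGRX360-OE, MeGRX232-OE leaves had higher intensities of both genes on every array, but neither passed the test over all probe sets. The log2 fold change of *ERF11* was 2.11 (SE 0.40, 95% interval 1.2 to 3.01, adjusted p = 0.0865) and that of *ERF4* was 1.19 (SE 0.30, 95% interval 0.51 to 1.86, adjusted p = 0.149). Of all probe sets 0.145% were called in this comparison, 0.0572% rose and 7.72% had MeGRX232-OE arrays all above the MeGRX360-OE arrays. By size, *ERF11* was the 28th and *ERF4* the 222nd highest change. By mean level both genes had the order MeGRX232-OE, MeGRX360-OE and vector. For *ERF4* neither neighbouring pair in that order was separated by the test, and for *ERF11* MeGRX360-OE and vector were.

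**Figure D2:**
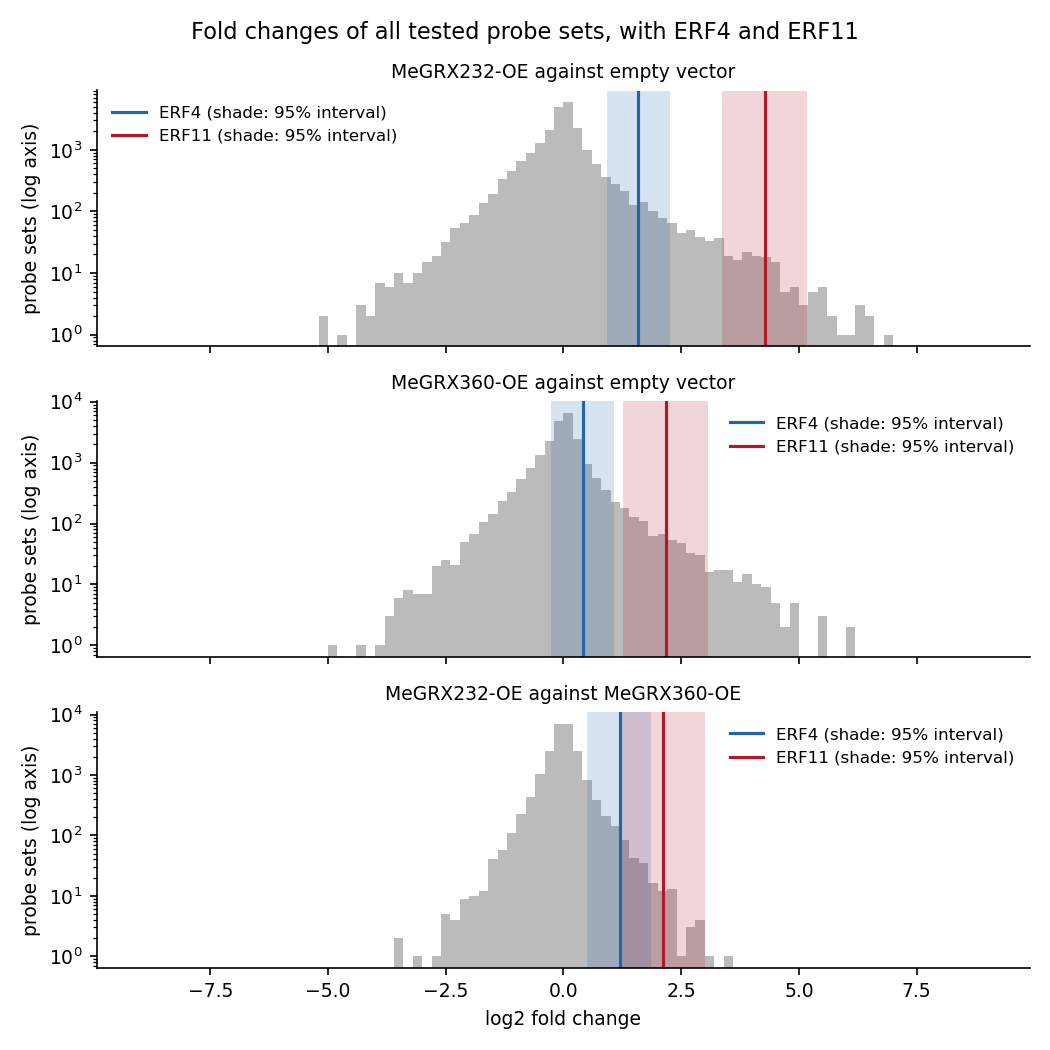
Number of probe sets (vertical axes, log scale) by log2 fold change (horizontal axis) over all 22746 tested, for the 3 comparisons, with lines at *ERF4* and *ERF11* and shading for their 95% intervals. *ERF11* lies in the right tail in each panel (4.28, 2.17 and 2.11), while *ERF4*, at 0.41, lies within the bulk of the probe sets in MeGRX360-OE against vector.

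Whether both genes moved by the same amount was asked from the log2 intensity of *ERF11* minus that of *ERF4* on each array. Its own size has no meaning, since the probe sets differ in brightness per transcript, but its shift between groups does. It was 1.73, 1.91 and 2.63 in MeGRX232-OE lines 3, 9 and 12, 1.53, 0.76 and 1.22 in MeGRX360-OE lines 5, 11 and 20, and −0.71, −0.58 and −0.49 in vector arrays 1, 2 and 3. No groups overlapped. *ERF11* moved more than *ERF4* by 2.68 on the log2 scale (6.41-fold) in MeGRX232-OE against vector, by 1.76 (3.39-fold) in MeGRX360-OE against vector and by 0.92 (1.89-fold) in MeGRX232-OE against MeGRX360-OE. The exact two-sided permutation test gave p = 0.1 for each of these 3 differences, the smallest p that 3 arrays against 3 allow, so the design could not reach 0.05.

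The genes described as targets came next. *PDF1.2A* and *PDF1.2B* encode plant defensins, antifungal peptides that jasmonate and ethylene induce through the GCC box and that *ERF4* is known to repress. *PDF1.2A* had intensities of 3410, 5617 and 7.89 in MeGRX232-OE lines 3, 9 and 12, 50.9, 401 and 4902 in MeGRX360-OE lines 5, 11 and 20, and 7.03, 7.04 and 7.61 in vector arrays 1, 2 and 3. Line 12, with the highest *ERF4* and *ERF11* of all arrays, had *PDF1.2A* barely above the vector arrays. Its *ERF4* intensity (395) was close to that of line 9 (381), where *PDF1.2A* was 5617. Line 20, with the highest *ERF4* and *ERF11* of MeGRX360-OE, had the highest *PDF1.2A* of its group. A link between these levels was not tested. The probe set of *PDF1.2B*, which by its suffix may also bind near-identical transcripts, gave 4212, 5997 and 36.0 in MeGRX232-OE lines 3, 9 and 12, 341, 1280 and 6044 in MeGRX360-OE lines 5, 11 and 20, and 39.1, 27.7 and 32.3 in vector arrays 1, 2 and 3.

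With this spread between lines, neither defensin gene passed the test. The log2 fold change of *PDF1.2A* was 6.20 (SE 2.43, adjusted p = 0.109) in MeGRX232-OE and 6.01 (SE 2.43, adjusted p = 0.14) in MeGRX360-OE, and that of *PDF1.2B* was 4.89 (SE 1.80, adjusted p = 0.0911) and 5.40 (SE 1.80, adjusted p = 0.0782) in the same groups against vector. Without line 12 the MeGRX232-OE value of *PDF1.2A* was 9.24 (adjusted p = 0.00448) and that of *PDF1.2B* was 7.26 (adjusted p = 0.00179), and both MeGRX360-OE values then passed as well (adjusted p = 0.0198 and 0.00493), since the arrays share 1 estimate of the spread. With array weights both genes also passed in both groups (adjusted p 0.00723 to 0.0143), and with only the 6 arrays compared both MeGRX360-OE values did (0.0354 for *PDF1.2A* and 0.0103 for *PDF1.2B*).

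*CAT3*, a catalase gene that *ERF4* isoforms are known to control in ageing leaves, rose in both overexpression groups. Its intensity was 6357, 6024 and 6647 in MeGRX232-OE lines 3, 9 and 12, 7086, 3627 and 5797 in MeGRX360-OE lines 5, 11 and 20, and 1783, 1654 and 2713 in vector arrays 1, 2 and 3. No vector array reached an overexpression array. Of all probe sets 17.0% in MeGRX232-OE and 16.5% in MeGRX360-OE had all arrays of the group above the vector arrays. The log2 fold change was 1.66 (SE 0.26, adjusted p = 0.00214) in MeGRX232-OE and 1.41 (SE 0.26, adjusted p = 0.00742) in MeGRX360-OE against vector. The other 4 of the 7 listed targets, among them the ethylene synthesis genes *ACS2* and *ACS5* that *ERF11* is known to repress, have no named probe set here and were not analysed here.

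**Figure D3:**
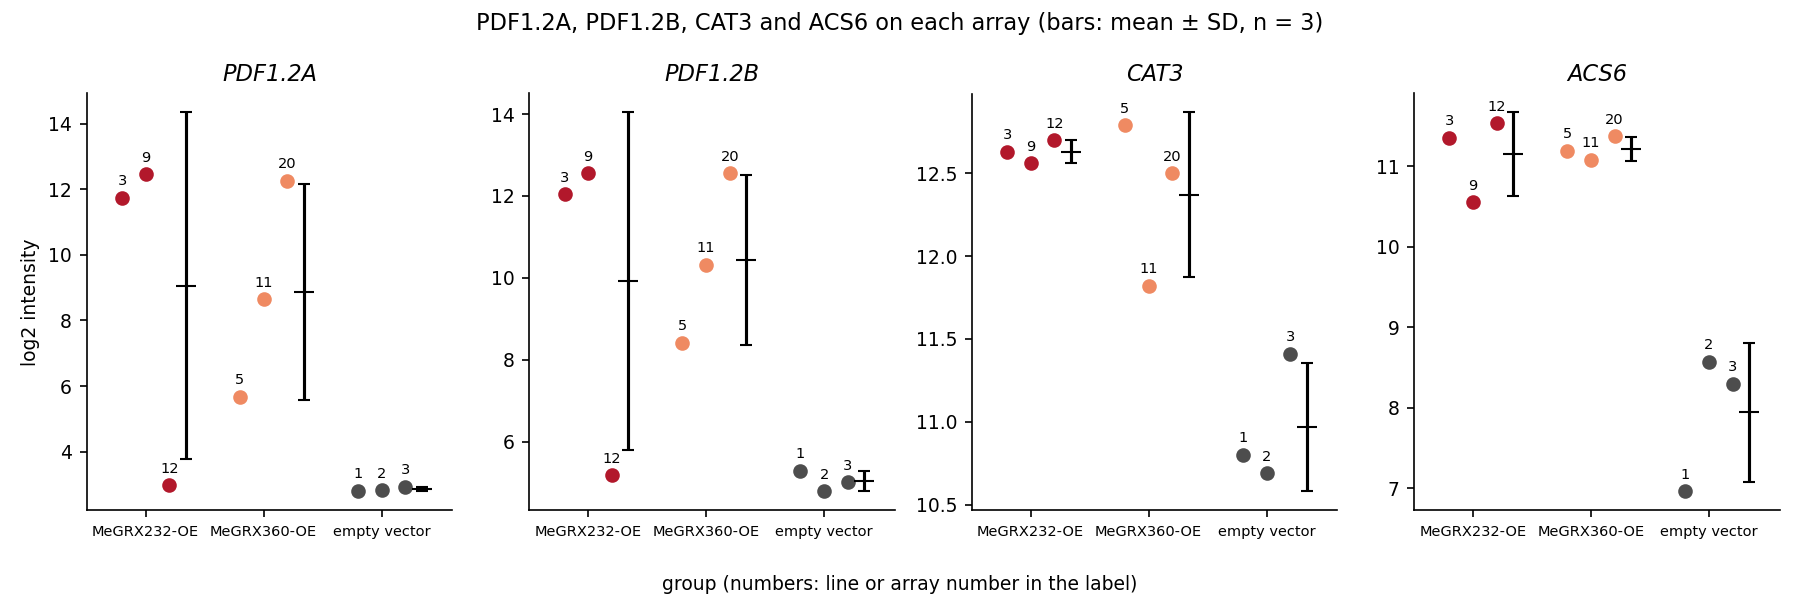
Log2 intensity of *PDF1.2A*, *PDF1.2B*, *CAT3* and *ACS6* on each of the 9 arrays (vertical axes, own scale for each gene), with the groups on the horizontal axes, points numbered by line or vector array and bars for the mean ± SD (n = 3). The *PDF1.2A* intensity of line 12 (7.89) sits beside the vector points and apart from lines 3 and 9 (3410 and 5617). *CAT3* and *ACS6* show all overexpression points above all vector points, as 17.0% (MeGRX232-OE) and 16.5% (MeGRX360-OE) of all probe sets did.

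Of ethylene synthesis genes, 3 of 14 had a named probe set. In each overexpression group 1 rose, where 9.22% (MeGRX232-OE) and 6.74% (MeGRX360-OE) of all probe sets rose. The gene that rose was named through the study's gene ontology table, so the count is no independent evidence. *ACS6*, a synthase of the ethylene precursor, had intensities of 2607, 1499 and 2948 in MeGRX232-OE lines 3, 9 and 12, 2341, 2164 and 2642 in MeGRX360-OE lines 5, 11 and 20, and 125, 381 and 315 in vector arrays 1, 2 and 3. Its log2 fold change against vector was 3.2 (SE 0.40, adjusted p = 8.03e-04) in MeGRX232-OE and 3.27 (SE 0.40, adjusted p = 0.00134) in MeGRX360-OE. *ACS8*, another such synthase, had values of 1.17 and 1.00, the first of which passed without line 12 (adjusted p = 0.0154), without line 5 (0.0344) or with array weights (1.40, adjusted p = 0.00788), and *ACO3*, of the oxidase that forms ethylene, of −0.48 and 0.21 in the same groups, and none of these 4 passed the test with equal weights on all arrays. In ethylene signalling 2 of 12 genes were named. *EIN3*, the transcription factor at the end of the pathway, rose in MeGRX232-OE (log2 fold change 0.88, SE 0.20, adjusted p = 0.0134; 0.0571 without vector array 2) and had 0.38 (SE 0.20, adjusted p = 0.258) in MeGRX360-OE. *RTE1*, which acts on an ethylene receptor, had 0.31 and 0.33 without passing, except with array weights (adjusted p = 0.032 and 0.0257). *MPK3*, the 1 named of 6 MAP kinases and a kinase of the defence cascade that acts on ACS6, rose by 1.89 (SE 0.15) and 1.52 (SE 0.15).

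The group VIIIa list of EAR-motif ERFs holds 8 genes, of which *ERF4* and *ERF11* alone had a named probe set, and *ERF12*, the annotated neighbour of *ERF11*, is among those not analysed here. None of the 10 co-repressor genes and none of the 7 DELLA and gibberellin genes were named. The EAR motif also occurs in zinc finger repressors of stress responses, of which 6 of 9 were measured. In MeGRX232-OE 4 rose and none fell (median log2 fold change of the list 1.86), and in MeGRX360-OE 2 rose and none fell (median 0.92), beside medians of 0.00 and 0.01 over all probe sets, of which 9.22% and 6.74% rose. *ZAT12*, a regulator of the response to oxidative stress, rose by 4.34 (SE 0.35) and 3.36 (SE 0.35), and *STZ*, which is induced by salt and cold, by 3.44 (SE 0.32) and 2.63 (SE 0.32). *AZF2* rose by 2.23 (SE 0.30) and *AZF3* by 1.49 (SE 0.36) in MeGRX232-OE, and in MeGRX360-OE they had 0.85 (SE 0.30) and 0.98 (SE 0.36), which did not pass. The *AZF3* call was lost without line 9 (adjusted p = 0.0572), vector array 1 (0.0544) or vector array 2 (0.0547) and with array weights (0.98, adjusted p = 0.0536). In MeGRX360-OE *AZF2* passed with the replicate block (adjusted p = 0.0307), with array weights (0.0174) or without line 12 (0.0485), and *AZF3* with array weights (0.0401), with only the 6 arrays compared (0.00303) or without line 3 (0.00238). Of these 6 names 4 come from the gene ontology table of the study, and the list was chosen with earlier results of these data known. Over the 2 named by the array annotation alone, 1 rose in each overexpression group. The other had −0.35 in MeGRX232-OE and −0.51 in MeGRX360-OE, which did not pass.

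The ERFs of group IX are the activators that bind the same GCC box. Of 14 listed genes 11 were measured, all but 1 of them named through the study's gene ontology table, so their counts are no independent evidence. In MeGRX232-OE 9 rose and none fell (median log2 fold change 3.21), and in MeGRX360-OE 7 rose and none fell (median 2.41), beside 9.22% and 6.74% of all probe sets that rose in these comparisons. The 4 with the largest change in MeGRX232-OE were *ERF6*, *ERF104*, *ERF13* and *ERF105*, factors of defence and oxidative stress responses. *ERF6* rose by 5.42 (SE 0.31) in MeGRX232-OE and by 4.77 (SE 0.31) in MeGRX360-OE, *ERF104* by 4.35 (SE 0.27) and 3.54 (SE 0.27), *ERF13* by 4.35 (SE 0.17) and 2.67 (SE 0.17), and *ERF105* by 3.98 (SE 0.31) and 2.41 (SE 0.31), each against vector. The change of *ERF11* in MeGRX232-OE (4.28) lies within the range of these 4 activators, and that of *ERF4* (1.59) lies below it. In MeGRX360-OE both *ERF11* (2.17) and *ERF4* (0.41) lie below the range of the same 4 genes. These 4 were picked for the largest change in MeGRX232-OE, so they do not stand for the whole list. Over all 11 measured, the log2 fold change was −1.10 to 5.42 in MeGRX232-OE and −0.59 to 4.77 in MeGRX360-OE. Both *ERF4* and *ERF11* lie within these ranges. In MeGRX232-OE against MeGRX360-OE, 1 of the 11 rose, *ERF13* (log2 fold change 1.67, SE 0.17, adjusted p = 0.0166). That call was lost without line 11 (adjusted p = 0.085), line 20 (0.058) or vector array 1 (0.0529) and with only the 6 arrays compared (0.102).

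Genes known to be induced by touch, wounding or chitin differed in the same direction. Of the 12 listed, all of them measured, 11 rose in MeGRX232-OE (median log2 fold change 3.80) and 10 in MeGRX360-OE (median 2.96), and none fell, where 9.22% and 6.74% of all probe sets rose. Over the 7 with a name from the array annotation alone the counts were 6 and 5. The list was chosen with earlier results of these data known, so none of these counts is independent evidence. *CML37* and *CML38*, calmodulin-like proteins, rose by 5.73 (SE 0.40) and 5.59 (SE 0.27) in MeGRX232-OE and by 4.21 (SE 0.40) and 4.88 (SE 0.27) in MeGRX360-OE. *PUB23*, a ubiquitin ligase that dampens immune responses, rose by 4.95 (SE 0.30) and 3.80 (SE 0.30), and *WRKY53*, a regulator of leaf ageing, by 4.65 (SE 0.25) and 2.91 (SE 0.25). The summed intensity of the 12 was 16487 to 22111 in MeGRX232-OE leaves, 12895 to 14623 in MeGRX360-OE leaves and 1488 to 1952 in vector leaves.

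Genes of the circadian clock differed as well. The dawn genes *CCA1* and *RVE8*, the 2 of 4 listed with a named probe set, fell by 3.07 and 1.94 in MeGRX232-OE on the log2 scale. In MeGRX360-OE they fell by 2.03 and 1.60. Of all probe sets 12.8% fell in MeGRX232-OE and 9.72% in MeGRX360-OE against vector. The evening genes *ELF3*, *TOC1* and *GI*, the 3 of 6 listed with a named probe set, rose by 3.07, 2.26 and 1.79 in MeGRX232-OE. In MeGRX360-OE they rose by 2.15, 1.46 and 1.23. Of all probe sets 9.22% and 6.74% rose in these comparisons. The summed intensity of the dawn genes was 69.1 to 145 in MeGRX232-OE leaves, 172 to 258 in MeGRX360-OE leaves and 807 to 950 in vector leaves. This sum is mostly *CCA1*. *RVE8* lay below the median of every array, at 4.21 to 5.88, 5.49 to 7.36 and 14.6 to 21.4 in the same groups. The summed intensity of the evening genes was 325 to 492 in MeGRX232-OE leaves, 212 to 273 in MeGRX360-OE leaves and 71.4 to 97.3 in vector leaves. On vector arrays *ELF3* (10.2 to 14.1) and *TOC1* (11.7 to 15.2) also lay below the array median. The sources give neither the hour nor the manner of leaf harvest, and the part of either in the levels of *ERF4* and *ERF11* was not tested.

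**Figure D4:**
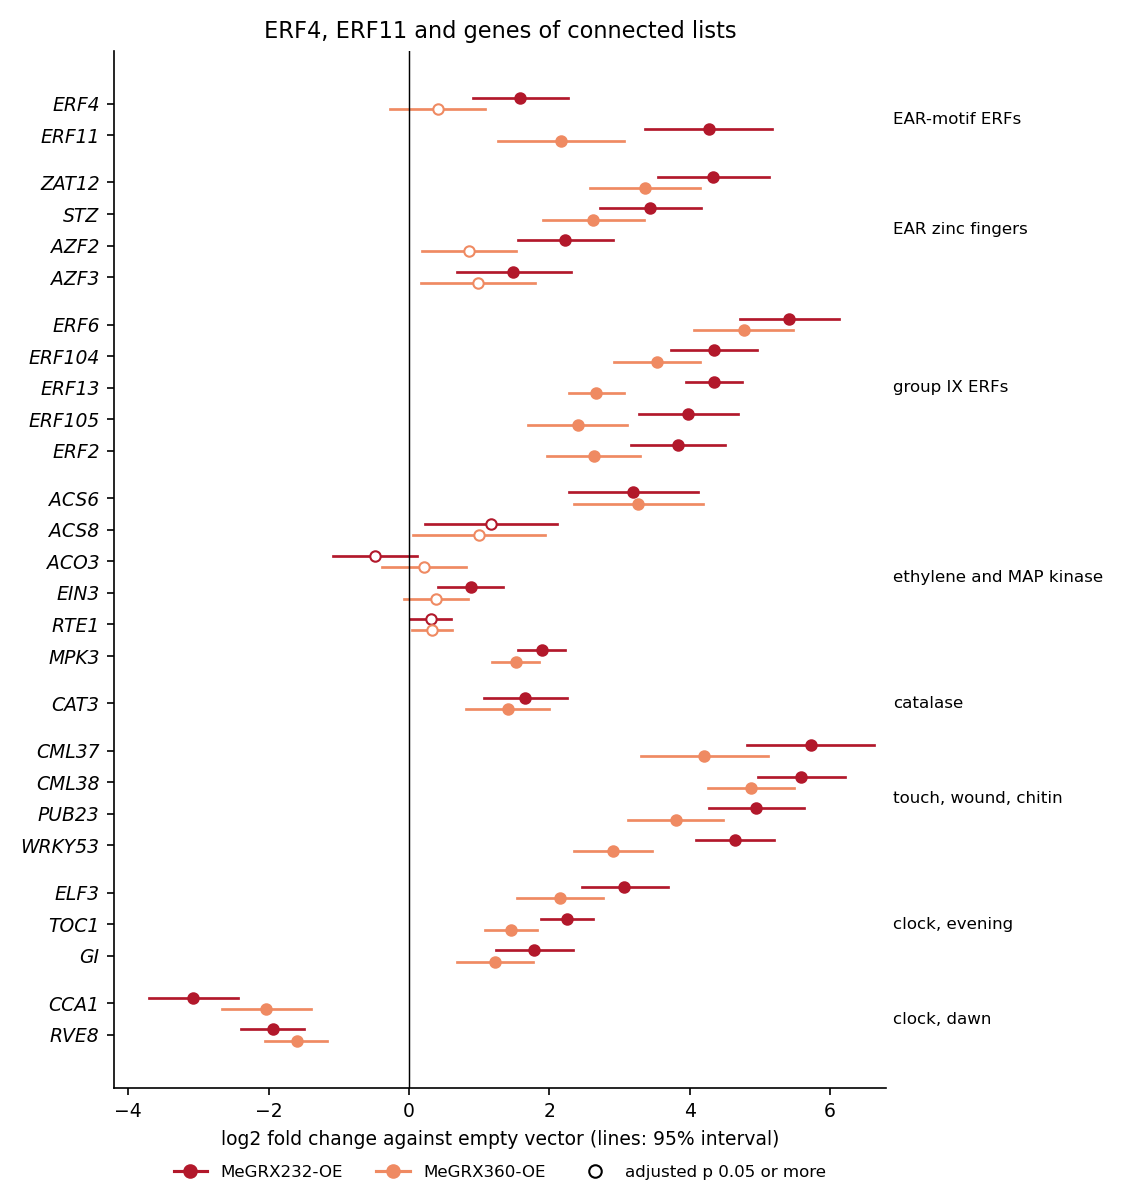
Log2 fold change against vector (horizontal axis, lines for 95% intervals) of *ERF4*, *ERF11* and genes of connected lists (rows), with MeGRX232-OE above MeGRX360-OE in each row and open points where the adjusted p was 0.05 or more. In MeGRX232-OE *ERF11* (4.28) lies among the group IX activators, in MeGRX360-OE (2.17) it lies below those named, *ERF4* (1.59 and 0.41) lies nearer to *AZF3* and *EIN3*, and the dawn genes *CCA1* and *RVE8* lie left of 0. The group IX genes shown were picked for a large change or for likeness to *ERF11*, and others of the 11 measured had lower values.

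Likeness of profiles was measured over the 9 arrays by the root-mean-square difference between log2 intensities, each gene centred on its own mean, among 13884 other singly named probe sets. This measure takes the size of a change into account as well as its shape. The genes it names were chosen on these values, so no test is given for them on that ground. *WRKY53* and *ERF2* also belong to lists, and the tests shown for them are not free of this choice. Nearest to *ERF4* were AT2G23680 (0.231), AT1G50740 (0.234), AT3G09830 (0.267), AT4G19390 (0.286) and *BZIP60* (0.295), the last a transcription factor of the unfolded protein response. Their log2 fold changes were 1.28 to 1.80 in MeGRX232-OE and 0.15 to 0.77 in MeGRX360-OE against vector. Nearest to *ERF11* were AT2G36220 (0.345), AT2G27310 (0.399), AT4G39670 (0.454), *WRKY53* (0.458) and the activator *ERF2* (0.468), with 3.83 to 4.65 in MeGRX232-OE and 2.27 to 2.91 in MeGRX360-OE. Between *ERF4* and *ERF11* themselves the difference was 1.15. *ERF4* was the 474th nearest to *ERF11* of 22745 probe sets, and *ERF11* the 20842nd nearest to *ERF4*. The measure counts size, and in MeGRX232-OE against vector *ERF11* changed by 4.28 and *ERF4* by 1.59. These ranks therefore do not show that the shapes of both profiles differ.

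**Figure D5:**
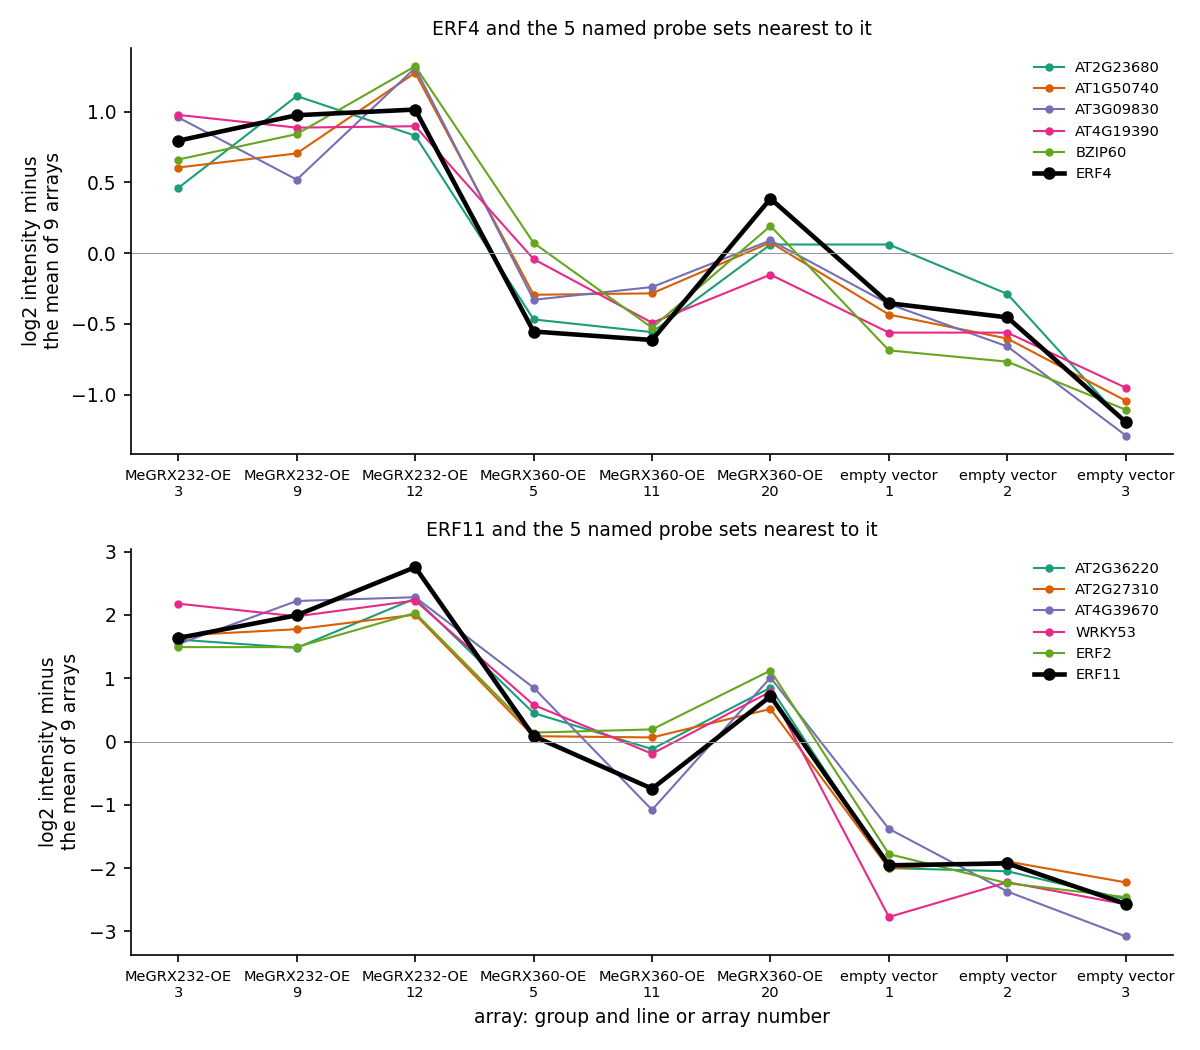
Log2 intensity minus the gene's mean over the 9 arrays (vertical axes) on each array (horizontal axes, group and line or vector array), for *ERF4* (upper panel) and *ERF11* (lower panel) in black and the 5 nearest singly named probe sets of each in colour. In the lower panel line 20 lies above lines 5 and 11 of MeGRX360-OE for all 6 genes, and the *ERF11* point of line 12 lies highest of all.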

How the data were processed

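Total RNA of 9 leaf samples was hybridized to Affymetrix ATH1 arrays. The intensities that the authors deposited are 1 table on a linear scale, and per the submitters' processing notes they come from RMA (version not given in the sources used here), which usually returns log2 values. log2 was taken first, and no other normalization was applied. The number of arrays limits the precision.

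Probe sets other than the 64 controls (22746) were fitted by limma 3.58.1 (R 4.3.3), with 1 mean per group and 1 spread shared by the 9 arrays (6 residual and 2.76 prior degrees of freedom). The steps were tested on simulated data. The annotation names 13513 probe sets with 1 gene and 503 with several, which stayed unnamed, and of the 8794 that it does not list, 372 took a name from the gene ontology table of the study, whose genes changed in MeGRX232-OE. Of 63 named by both, 60 had the same locus. Loci and symbols follow RefSeq TAIR10.1. No sequences were printed.

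The members and lists were chosen with earlier results of these data known. Named genes were both members, every measured target and EAR-motif ERF, up to 4 genes of each other list with the largest change in MeGRX232-OE against vector, and the 5 probe sets nearest to each member. Alternatives were a replicate block, further quantile normalization, array centring, leaving out the dimmest 40% of probe sets, an intensity trend, array weights, only the 6 arrays compared, log2(value + 16) and leaving out each array. Python 3.11.15 with scipy 1.17.1 ran the exact permutation tests.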

Additional observations from a re-analysis of the deposited data

Results flagged for a closer look

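For 2 of the genes named from the lists, the effect of MeGRX232-OE differed from that of MeGRX360-OE by the limma contrast between both groups. The log2 fold change of *ERF13* was 1.67 (SE 0.17, adjusted p = 0.0166), with intensities of 155, 210 and 151 in MeGRX232-OE lines 3, 9 and 12 and of 44.3, 55.4 and 61.7 in MeGRX360-OE lines 5, 11 and 20. That of *WRKY53* was 1.74 (SE 0.25, adjusted p = 0.0482), with intensities of 1152, 1005 and 1195 in MeGRX232-OE lines 3, 9 and 12 and of 381, 223 and 438 in MeGRX360-OE lines 5, 11 and 20. Its call was lost without any 1 of the 9 arrays except line 9 and line 5. Both were named for their large change in MeGRX232-OE against vector, so they were not chosen independently of this contrast. *WRKY53* was also among the probe sets nearest to *ERF11*, a choice that used the arrays of this contrast.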

How the results depend on the processing

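*ERF4* and *ERF11* kept their direction and their side of the threshold in all 3 comparisons under the 8 alternative settings and with each of the 9 arrays left out, and so did the direction of *ERF11* minus *ERF4* where it was recomputed. With arrays left out, the log2 fold change of *ERF11* was 3.96 to 4.52 in MeGRX232-OE and 1.82 to 2.55 in MeGRX360-OE against vector, and that of *ERF4* was 1.33 to 1.75 and 0.08 to 0.58. The sources do not say that the replicate numbers pair the samples. Of 9 pairs of arrays with the same number, 3 had deviations that correlated above 0.1 (range −0.212 to 0.267). Pairs with different numbers had −0.41 to 0.227. With 3 arrays a group these values cannot tell whether arrays of the same number share a batch. With the replicate block the adjusted p of *ERF11* was 0.00105 and 0.016, and that of *ERF4* 0.0173 and 0.502.

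Counts of probe sets called moved more. In MeGRX232-OE against MeGRX360-OE 33 were called, against 21 with centring, 530 with array weights, 5 with only the 6 arrays compared, 14 with log2(value + 16), and 4 to 177 without 1 array: 4 without line 11 or line 20, 7, 9 and 13 without vector array 1, 2 or 3, 16 without line 3 or line 12, 141 without line 5 and 177 without line 9. In MeGRX360-OE against vector 3746 were called, against 5701 with array weights, and 2389, 2455 and 2219 without line 20, vector array 1 or vector array 2 (range 2219 to 4063). The cause was not tested. AT2G23680 in MeGRX360-OE turned to −0.04 without line 20 and −0.21 without vector array 3 (highest 0.42, without vector array 1). The *ERF13* call between both constructs was lost in 4 alternatives and that of *WRKY53* in 11. Without line 5, as an alternative added after seeing the data, the counts of genes that rose against vector stayed at 9 and 7 for group IX ERFs, 4 and 2 for zinc fingers and 11 and 10 for touch, wound and chitin genes; array weights gave 4 zinc finger genes in MeGRX360-OE. *RVE8* and *EXPA7* were left out with the dimmest probe sets.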
